A study of Mus musculus with 5 samples.

Results

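DNA replication and mitosis were followed through 46 genes, chosen by name and grouped by the step at which their products act. They comprised 24 replication genes, G1 and S phase cyclins included, and 22 mitosis genes. Of 12393 genes with a probe set annotated to 1 symbol, 45 were members. The expression of Ccnb1 was not analysed here. A probe set is the group of probes on an array that reads 1 transcript, and for a gene with several the one of highest mean log2(signal + 16) was used. RNA of whole C57BL6J mouse embryos, taken at gestation day 9.5, was measured on 5 single-colour Affymetrix arrays, 2 arrays of Folr1-/- embryos and 3 arrays of Folr1+/+ embryos. Folr1 encodes a receptor that brings folate into cells. The Folr1-/- embryos were bred from Folr1+/- parents, the dams being kept on food with added folate before mating and through pregnancy. The diet of the Folr1+/+ litters is not stated on its own, and any difference in it cannot be told apart from genotype. The labels speak of biological replicates but do not say if embryos were pooled for an array, so the p-values measure the spread between these arrays.

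Before S phase, origins are licensed when Cdc6 and Cdt1 load the ring-shaped MCM helicase, made of Mcm2 to Mcm7, and geminin (Gmnn) blocks Cdt1 afterwards so that no origin fires again. In S phase DNA polymerase alpha and primase start each strand, the sliding clamp PCNA holds the later polymerases on DNA, and folate-dependent nucleotide synthesis feeds them. In mitosis cyclin B with Cdk1 drives entry, the spindle checkpoint delays chromosome separation until every chromosome is attached, and kinesin motors build the spindle. The genes of the first phase are widely controlled by E2F factors, and those of the second by the DREAM and MuvB complexes, which bind the cell cycle genes homology region (CHR), together with NF-Y at CCAAT boxes. Cells of the closing neural tube and the other tissues of the embryo at this age divide rapidly.

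The promoters of both classes differed in the letters they held. RefSeq windows on assembly GRCm38.p6, reaching 250 bases before and 50 bases after a transcript start, were found for 37 of the 46 members (42 windows). Both strands were searched. The E2F letters were TTGGCGC or the related letters TTCCCGC or, as further forms, TTCGCGC or the letters TTGCCGC. The CHR letters were TTTGAA or the related TTCGAA form, and the CCAAT box was searched as the letters in its name. Matches of different motifs could overlap. E2F letters stood in 15 of 23 replication windows (65.2%) and 3 of 19 mitosis windows (15.8%), against 17.6% of the 7873 windows of tested genes and 9.57% of all 32851 windows. CHR letters stood in 5 replication windows (21.7%) and 14 mitosis windows (73.7%), against 13.6% of the windows of tested genes and 19.2% of all windows. All 14 mitosis windows with CHR letters also held a CCAAT box. They belonged to 13 genes, with 2 overlapping windows of Bub3. This combination was found in 4 replication windows (17.4%) and in 5.44% of the windows of tested genes. A match describes letters, not a bound site. The 4 members with the smallest p in each class were taken for display, and those with a window are shown because they include 3 of the 4 members past the threshold described below. Capitals mark E2F letters, CHR letters and CCAAT boxes on either strand.
Pola1 (chrX:93632106-93632405, - strand): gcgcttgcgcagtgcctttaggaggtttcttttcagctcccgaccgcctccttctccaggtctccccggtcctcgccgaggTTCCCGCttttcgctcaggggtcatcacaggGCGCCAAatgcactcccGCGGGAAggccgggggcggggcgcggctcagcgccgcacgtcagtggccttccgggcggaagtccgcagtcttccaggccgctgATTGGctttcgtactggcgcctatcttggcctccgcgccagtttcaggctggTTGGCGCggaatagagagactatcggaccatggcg
Mcm5 (chr8:75109259-75109558, + strand): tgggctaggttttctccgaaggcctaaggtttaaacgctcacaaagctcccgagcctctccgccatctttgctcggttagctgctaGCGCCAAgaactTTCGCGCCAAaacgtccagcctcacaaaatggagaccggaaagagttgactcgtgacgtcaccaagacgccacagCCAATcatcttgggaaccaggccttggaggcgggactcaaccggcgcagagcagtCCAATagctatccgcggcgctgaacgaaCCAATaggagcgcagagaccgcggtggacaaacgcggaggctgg
Bub1b (chr2:118597961-118598260, + strand): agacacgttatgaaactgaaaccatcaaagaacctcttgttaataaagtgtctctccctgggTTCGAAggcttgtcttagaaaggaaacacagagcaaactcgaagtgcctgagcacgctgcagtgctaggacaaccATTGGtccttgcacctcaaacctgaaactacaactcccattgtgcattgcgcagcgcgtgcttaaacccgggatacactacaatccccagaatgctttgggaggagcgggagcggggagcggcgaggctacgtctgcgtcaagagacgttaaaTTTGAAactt
Mki67 (chr7:135716330-135716629, - strand): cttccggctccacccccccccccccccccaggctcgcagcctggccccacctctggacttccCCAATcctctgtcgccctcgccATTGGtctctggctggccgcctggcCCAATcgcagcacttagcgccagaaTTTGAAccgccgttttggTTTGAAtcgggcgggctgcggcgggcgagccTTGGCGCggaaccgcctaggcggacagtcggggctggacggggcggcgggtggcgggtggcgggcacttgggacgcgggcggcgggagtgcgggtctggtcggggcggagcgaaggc
Cdk1 (chr10:69352863-69353162, - strand): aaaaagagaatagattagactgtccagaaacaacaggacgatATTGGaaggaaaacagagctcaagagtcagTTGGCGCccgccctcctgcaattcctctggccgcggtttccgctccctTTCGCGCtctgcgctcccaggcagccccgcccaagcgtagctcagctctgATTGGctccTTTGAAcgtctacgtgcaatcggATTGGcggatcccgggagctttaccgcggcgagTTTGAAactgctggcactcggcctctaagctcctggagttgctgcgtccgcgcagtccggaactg
The Pola1 window held 4 E2F matches and the Mcm5 window 3, with no CHR letters in either. The Bub1b window held 2 CHR matches and no E2F letters, and the Mki67 and Cdk1 windows held both kinds. For Ccnd2, Ccnd1 and Ccna2, the remaining genes of this choice, no window is shown.

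**Figure D1:**
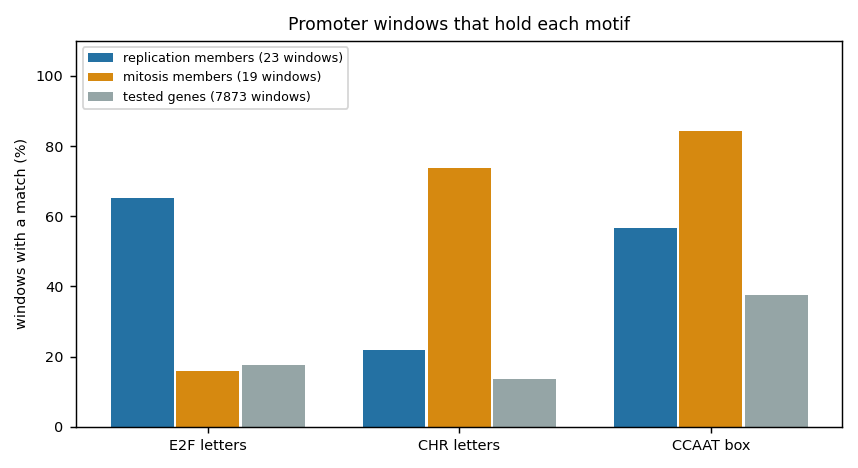
Share of promoter windows (%, vertical axis) with at least 1 match to E2F letters, CHR letters or a CCAAT box, for replication members, mitosis members and all tested genes (bars). The replication members stand highest for E2F letters at 65.2%, and the mitosis members for CHR letters at 73.7%.

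The arrays had nearly equal trimmed mean signals after the authors' scaling (150.06 to 150.07). Their median signals were 33.3 and 33.0 on the Folr1-/- arrays, against 35.2, 38.3 and 35.7 on the Folr1+/+ arrays. The signal of Actb near its 3' end over that near its 5' end, a measure of RNA shortening, was 30.5 and 22.8 on the Folr1-/- arrays and 21.1, 39.5 and 29.1 on the Folr1+/+ arrays. The Folr1 probe set did not check the genotype, with a log2 fold change of -0.07 ± 0.20 (SE, limma adjusted p = 0.86), and the groups are called by their labels. Xist, transcribed from the inactive X of females, had signals of 419 and 770.4 in Folr1-/- embryos, against 24.95 to 35.7 in Folr1+/+ embryos, so the groups differed in this X-linked gene. Of the Y-linked genes, both lower, Eif2s3y had 104 and 3.13 in Folr1-/- embryos, against 300.3 to 372 in Folr1+/+ embryos, and Kdm5d had 25.2 and 0.796 in Folr1-/- embryos, against 89.5 to 120.5 in Folr1+/+ embryos. Any difference in embryo sex between the groups cannot be told apart from genotype. Tissue markers differed as well. The summed signal of 10 visceral endoderm markers was 16229 and 16502 in Folr1-/- embryos, against 2318 to 3307 in Folr1+/+ embryos. All 10 were higher at a limma adjusted p under 0.05, against 8.19% of all tested genes. For 9 primitive erythroid markers the sum was 200.2 and 614 in Folr1-/- embryos, against 5380.3 to 6318 in Folr1+/+ embryos. All 7 that were tested had negative log2 fold changes. Of these, 6 were lower at that threshold, against 6.79% of all tested genes. For 10 neural progenitor markers the sum was 402 and 429.9 in Folr1-/- embryos, against 1407 to 1433 in Folr1+/+ embryos. Of the 9 tested, 8 were lower at the same threshold, again against 6.79% of all tested genes. Of these markers 2 erythroid and 1 neural were too dim to be tested. The part of these differences in the results below was not tested, and in whole embryos fewer cells of a type cannot be told apart from less RNA per cell.

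A smaller share of the replication and mitosis genes than of all tested genes passed the threshold. A log2 fold change of at least 1 in size was found in 4.44% of the members and 4.65% of all tested genes. Negative fold changes made up 71.1% of the members and 52.1% of all tested genes. Of the 45 members, all bright enough to be tested, 4 were lower in Folr1-/- embryos at a limma adjusted p under 0.05 (Ccnd2, Pola1, Bub1b and Mcm5), 0 were higher and 41 did not pass. That is 8.89% of the members, where 15.0% of all 7436 tested genes passed (1114 genes, 6.79% lower and 8.19% higher). With each array centred on its median, 69.3% of the genes past the threshold were higher, in place of 54.7%, and Mcm5 did not pass (adjusted p = 0.0502). The median log2 fold change of the members was -0.12, against -0.02 for all tested genes, and the median size without sign was 0.20 for members and 0.26 for all tested genes. For 39 of the 41 members that did not pass, the 95% confidence interval of the log2 fold change lay between -1 and 1. The exceptions were Mcm2 and Gmnn, whose intervals reached 1.38 and 1.01. For 18 members the interval lay between -0.5 and 0.5. At an unadjusted limma p under 0.05 there were 8 members lower and 3 higher (24.4%), against 30.0% of all tested genes (15.0% in each direction). The groups did not overlap in 18 members (40.0%), against 46.7% of all tested genes. By direction, 15 members were lower (33.3%) and 3 higher (6.67%), against 24.2% lower and 22.5% higher among all tested genes.

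**Figure D2:**
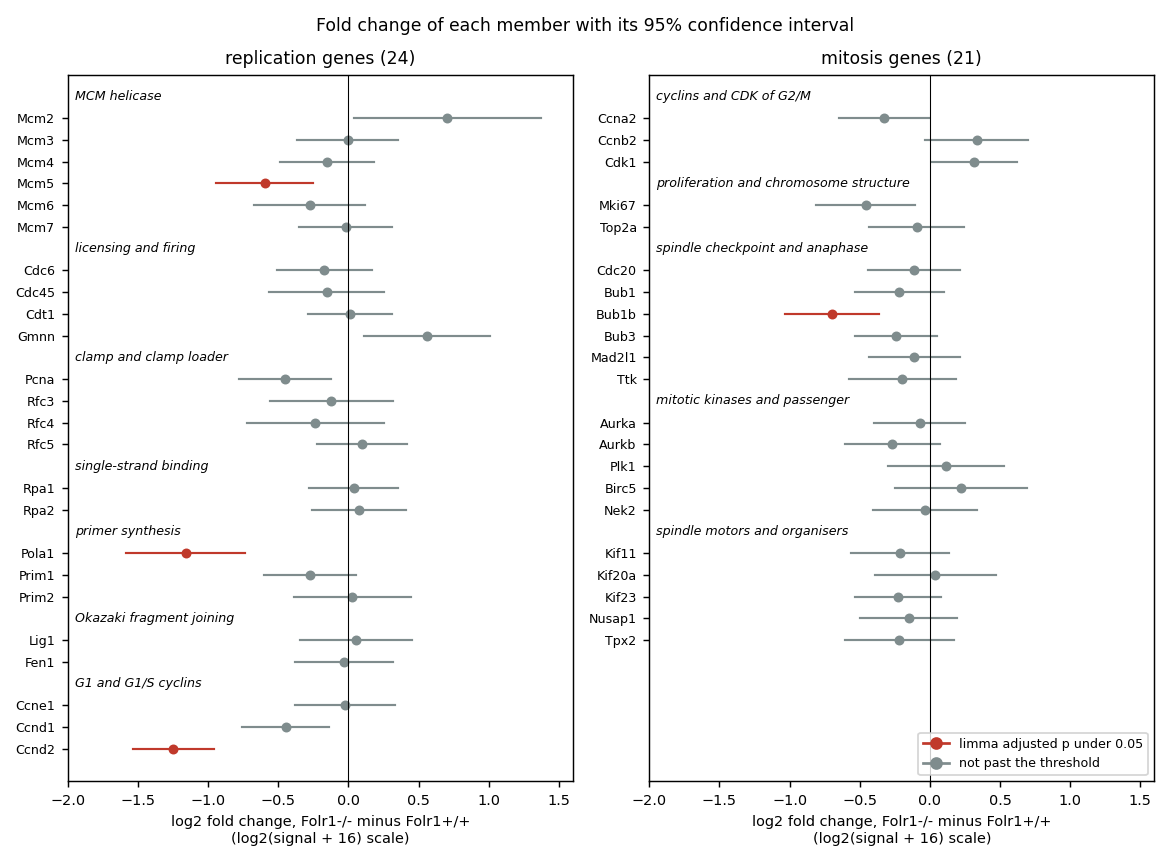
Log2 fold change (Folr1-/- minus Folr1+/+, horizontal axis, log2(signal + 16) scale) of the 24 replication genes (left) and 21 mitosis genes (right), grouped by role, with 95% confidence intervals as bars. The 4 members past the threshold are red, and all of them lie to the left of 0, from -0.60 to -1.25.

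D-type cyclins activate Cdk4 and Cdk6 and carry growth signals into the cell cycle. Ccnd2, which encodes cyclin D2, had signals of 1147 and 1188 in Folr1-/- embryos, against 2840.5, 2737 and 2814 in Folr1+/+ embryos. The Folr1-/- level was 41.7% of the Folr1+/+ level, with replicates close together in both groups. Its log2 fold change was -1.25 ± 0.13 (SE, limma adjusted p = 9.6e-05), the largest in size among the members. The other Ccnd2 probe sets showed the same direction with smaller sizes. All 7 were lower, with log2 fold changes from -0.15 to -1.25, and of the 6 bright enough to be tested 1 passed when every probe set on the array was fitted on its own. The next strongest had -0.65 ± 0.20 (SE, limma adjusted p = 0.058), with signals of 769 and 646 in Folr1-/- embryos, against 1406, 868 and 1141 in Folr1+/+ embryos. On these other probe sets Folr1+/+ replicate 1 was the highest. The groups overlapped on all of the remaining ones. An example had signals of 878 and 872 in Folr1-/- embryos, against 1858, 874 and 1298 in Folr1+/+ embryos. With the mean of the 7 probe sets Ccnd2 did not pass (-0.51, adjusted p = 0.13). The other members past the threshold, Pola1, Mcm5 and Bub1b, each had 1 probe set.

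Ccnd1, for cyclin D1, had signals of 1264 and 1333 in Folr1-/- embryos, against 1777, 1619 and 1949 in Folr1+/+ embryos. The groups did not overlap, but its log2 fold change of -0.45 ± 0.14 (SE) just missed the threshold (limma adjusted p = 0.054). It passed in 3 of the 17 other settings, and its other probe sets had 0.16 and 0.04. Ccnd3, a D-type cyclin gene outside the members, had signals of 899.6 and 502 in Folr1-/- embryos, against 422, 447 and 531 in Folr1+/+ embryos. The groups overlapped, and its log2 fold change was 0.52 ± 0.22 (SE, limma adjusted p = 0.13). Ccne1, for cyclin E1, which acts with Cdk2 at the start of S phase, had signals of 346 and 311 in Folr1-/- embryos, within the range of 293 to 379.8 in Folr1+/+ embryos. Its log2 fold change was -0.03, with an interval from -0.38 to 0.33.

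**Figure D3:**
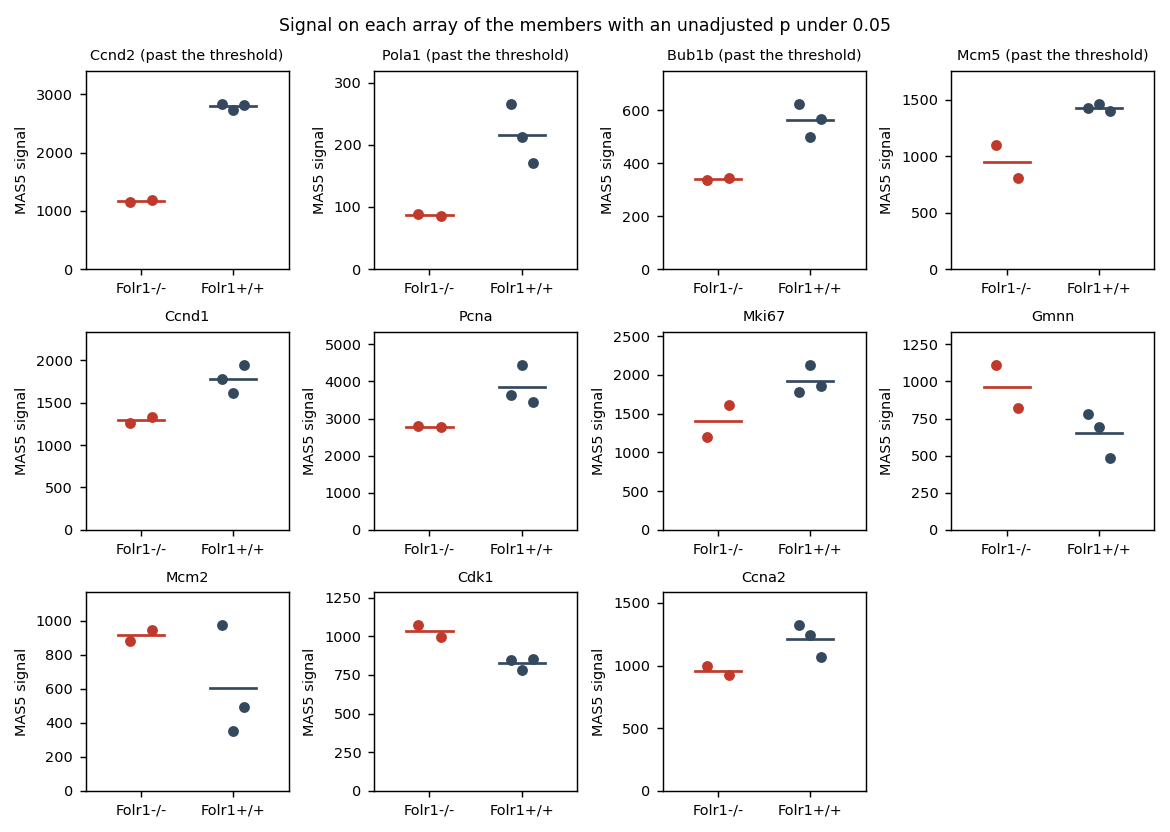
MAS5 signal on each array (vertical axes, from 0) of the 11 members with an unadjusted p under 0.05, with Folr1-/- arrays on the left, Folr1+/+ arrays on the right and bars at the group means. Ccnd2 shows the widest gap relative to its spread, at 1147 and 1188 in Folr1-/- embryos and 2737 to 2840.5 in Folr1+/+ embryos, while in Mcm2 Folr1+/+ replicate 1 (974) lies above both Folr1-/- arrays.

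Among the 6 genes of the MCM helicase, whose proteins act in 1 ring, 1 fell, 0 rose and 5 did not pass. Of all tested genes 15.0% passed, so 1 of 6 is near that share. Mcm5 had signals of 1098 and 803 in Folr1-/- embryos, against 1428, 1463 and 1397 in Folr1+/+ embryos. The Folr1-/- replicates differed from each other by nearly as much as the nearer one differed from the Folr1+/+ group. The log2 fold change was -0.60 ± 0.16 (SE, limma adjusted p = 0.025). It was -0.37 without Folr1-/- replicate 2 (adjusted p = 0.21), and the call was lost in 6 of 17 other settings. Mcm2 had signals of 884 and 948 in Folr1-/- embryos, against 974, 352 and 495 in Folr1+/+ embryos, so that its groups overlapped through Folr1+/+ replicate 1. Its log2 fold change was 0.71 ± 0.31 (SE, limma adjusted p = 0.15), and 1.10 without that array (adjusted p = 0.0046). A second Mcm2 probe set went the other way, at -0.14 ± 0.17 (SE, adjusted p = 0.64). Mcm3, Mcm4, Mcm6 and Mcm7 had log2 fold changes of -0.01, -0.15, -0.28 and -0.02 with overlapping groups. Of these, Mcm7 had signals of 2908 and 3008 in Folr1-/- embryos, against 3304, 2539 and 3212 in Folr1+/+ embryos.

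No licensing or firing gene passed. Cdt1, the loader of the MCM ring, was almost equal, at 1224 and 1244 in Folr1-/- embryos and 1262, 1263 and 1146 in Folr1+/+ embryos, with an interval of the log2 fold change from -0.29 to 0.31. Its inhibitor Gmnn had signals of 1113 and 818 in Folr1-/- embryos, against 782, 692 and 487 in Folr1+/+ embryos. Gmnn was higher on both Folr1-/- arrays than on every Folr1+/+ array, but its log2 fold change of 0.56 ± 0.21 (SE) did not pass (limma adjusted p = 0.090). Cdc6, which helps load the helicase, had -0.17 ± 0.15 (SE), and Cdc45, part of the active helicase, had -0.15 ± 0.19 (SE). Neither passed, and both had overlapping groups.

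The subunits that prime DNA synthesis did not move together. Pola1, the catalytic subunit of DNA polymerase alpha, had signals of 88.4 and 84.8 in Folr1-/- embryos, against 266, 213 and 171 in Folr1+/+ embryos. The Folr1-/- level was 40.0% of the Folr1+/+ level, and the log2 fold change was -1.16 ± 0.20 (SE, limma adjusted p = 0.0022), past the threshold in all 16 other settings in which it was tested. Pola1 is the 1 member on the X chromosome, and the same arrays differed in Xist (419 and 770.4 in Folr1-/- embryos, against 24.95 to 35.7 in Folr1+/+ embryos), and in the Y-linked genes, whose part in this result was not tested. Prim1, the catalytic subunit of primase, had signals of 502 and 537 in Folr1-/- embryos, against 701, 575 and 627 in Folr1+/+ embryos, and a log2 fold change of -0.28 ± 0.15 (SE, limma adjusted p = 0.24). Its partner Prim2 had 0.03 ± 0.19 (SE). Pola2, the regulatory subunit of polymerase alpha outside the members, had 0.09 ± 0.19 (SE, adjusted p = 0.79).

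The sliding clamp was lower without passing the test. Pcna had signals of 2789.9 and 2783 in Folr1-/- embryos, against 3623, 4456 and 3446 in Folr1+/+ embryos. Its groups did not overlap, and its log2 fold change was -0.45 ± 0.15 (SE, limma adjusted p = 0.062). The clamp loader genes Rfc3, Rfc4 and Rfc5 had -0.12, -0.24 and 0.10 with overlapping groups. Rpa1 and Rpa2, which coat single-stranded DNA, had 0.04 and 0.07, with intervals from -0.28 to 0.35 and from -0.26 to 0.41. Fen1 and Lig1, which trim and join the Okazaki fragments of the lagging strand, had -0.03 and 0.06. In both the Folr1-/- arrays lay far apart, as in Lig1, with 1129 and 792 in Folr1-/- embryos against 1076, 808 and 866 in Folr1+/+ embryos.

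Among the mitosis genes 1 of 21 fell, 0 rose and 20 did not pass, a share of 4.76% past the threshold against 15.0% of all tested genes. At an unadjusted limma p under 0.05 there were 3 lower and 1 higher (19.05%), against 30.0% of all tested genes. The groups did not overlap in 11 mitosis genes (52.4%), against 46.7% of all tested genes. By direction, 9 were lower (42.9%) and 2 higher (9.52%), against 24.2% lower and 22.5% higher among all tested genes. Among the 24 replication genes 12.5% passed, 29.2% had an unadjusted limma p under 0.05, and 29.2% had groups that did not overlap. The genes that drive entry into mitosis pointed in opposite directions without passing. Cdk1, the mitotic kinase, had signals of 1071 and 996 in Folr1-/- embryos, against 844, 783 and 853 in Folr1+/+ embryos. Its groups did not overlap, and its log2 fold change was 0.32 ± 0.14 (SE, limma adjusted p = 0.15). Its partner gene Ccnb2 had signals of 543 and 438 in Folr1-/- embryos, against 398, 334 and 426 in Folr1+/+ embryos, at 0.33 ± 0.17 (SE, limma adjusted p = 0.20). Ccna2, for cyclin A2, which acts from S phase to early mitosis, had signals of 994 and 927 in Folr1-/- embryos, against 1320.4, 1243 and 1070.2 in Folr1+/+ embryos. The log2 fold change of Ccna2 was -0.33 ± 0.15 (SE, limma adjusted p = 0.16), and a second Ccna2 probe set had 0.09.

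The proliferation marker Mki67 had signals of 1197 and 1616 in Folr1-/- embryos, against 1782, 2133 and 1854 in Folr1+/+ embryos. All Folr1-/- values lay below all Folr1+/+ values, at a log2 fold change of -0.46 ± 0.16 (SE, limma adjusted p = 0.079), and it passed without Folr1-/- replicate 2 (-0.67, adjusted p = 0.048). Top2a, the topoisomerase that untangles sister chromosomes, overlapped between the groups, at 1772 and 2297 in Folr1-/- embryos and 2326, 2176 and 1976 in Folr1+/+ embryos. Its log2 fold change was -0.09, with an interval from -0.43 to 0.24.

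All 6 spindle checkpoint and anaphase genes had negative log2 fold changes, and 1 of them passed. Of all tested genes 52.1% were negative and 15.0% passed. With the mean of its probe sets Cdc20 stood just above 0. Bub1b, which encodes the checkpoint kinase-like protein BubR1, had signals of 335 and 345 in Folr1-/- embryos, against 625, 499 and 569 in Folr1+/+ embryos. The Folr1-/- level was 60.3% of the Folr1+/+ level, with a log2 fold change of -0.70 ± 0.15 (SE, limma adjusted p = 0.010). Leaving out Folr1-/- replicate 1 or replicate 2 gave a similar size (-0.68 and -0.72), but the call was lost (limma adjusted p = 0.086 and 0.051). Its partners Bub1 and Bub3 had -0.22 ± 0.14 and -0.24 ± 0.13 (SE), with groups that did not overlap and adjusted p-values of 0.34 and 0.25. Mad2l1, Ttk and Cdc20, the last of them the activator of the anaphase-promoting complex, had -0.11, -0.20 and -0.11 with overlapping groups.

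No mitotic kinase or spindle gene passed. Aurkb, the kinase of the chromosomal passenger complex, had signals of 301 and 306 in Folr1-/- embryos, against 342, 358 and 409.6 in Folr1+/+ embryos, at -0.27 ± 0.15 (SE, limma adjusted p = 0.27). Its partner Birc5 (survivin) had 0.22 ± 0.21 (SE), while the centrosome and spindle kinases Aurka, Plk1 and Nek2 had -0.07, 0.12 and -0.03. Of the spindle motor and organiser genes, Kif23, a kinesin of the dividing cell's midbody, had close replicates, at 497 and 500.2 in Folr1-/- embryos and 584, 584 and 588 in Folr1+/+ embryos. The groups were apart, but the log2 fold change was only -0.22 ± 0.14 (SE, limma adjusted p = 0.31). Kif11 and Tpx2, which build the bipolar spindle, and the microtubule-binding Nusap1 had -0.21, -0.22 and -0.15, and the kinesin Kif20a had 0.04.

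The median log2 fold change was -0.08 over the 24 replication genes and -0.15 over the 21 mitosis genes, and 16 members of each class were negative, against 52.1% of all tested genes. With each array centred on its median, which moved the median of all tested genes to 0.07, these medians were 0.01 and -0.06. Leaving out 1 array gave replication medians from -0.15 (without Folr1-/- replicate 1) to -0.0061 (without Folr1+/+ replicate 1), and mitosis medians from -0.185 to -0.053. Relative to each gene's Folr1+/+ mean, the replication genes averaged -0.11 and -0.21 on the Folr1-/- arrays, against 0.14, -0.09 and -0.05 on the Folr1+/+ arrays. The mitosis genes averaged -0.15 and -0.10 on the Folr1-/- arrays, against 0.02, -0.04 and 0.02 on the Folr1+/+ arrays. With the authors' scaling kept, the mitosis average was therefore lower on both Folr1-/- arrays than on any Folr1+/+ array. So was the replication average, whose nearest arrays lay only 0.02 apart. The order of the arrays in these averages, and in the medians that follow, was not tested with median centring. Medians over the replication genes overlapped, at -0.04 and -0.15 on the Folr1-/- arrays, against 0.13, -0.09 and -0.05 on the Folr1+/+ arrays. Those over the mitosis genes did not, at -0.17 and -0.05 on the Folr1-/- arrays, against 0.02, -0.04 and 0.01 on the Folr1+/+ arrays. The difference of the averages, replication minus mitosis, was 0.04 and -0.11 on the Folr1-/- arrays, against 0.12, -0.04 and -0.07 on the Folr1+/+ arrays. The groups overlapped in this difference, and no test was made over the members. The difference between the group means was -0.03, and its sign turned without Folr1-/- replicate 2 (0.04) and without Folr1+/+ replicate 1 (0.02).

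**Figure D4:**
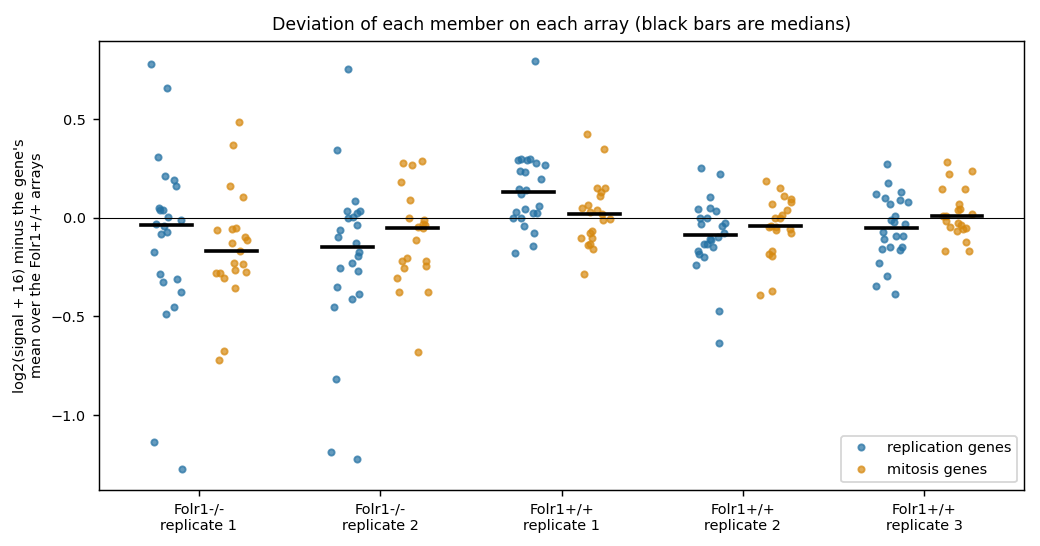
Deviation of each member's log2(signal + 16) from its mean over the Folr1+/+ arrays (vertical axis) on each of the 5 arrays, with replication genes in blue, mitosis genes in orange and black bars at the medians. Most points lie within 0.5 of 0 on every array, and the lowest points on the Folr1-/- arrays are Ccnd2 and Pola1.

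Grouped by promoter letters, the 36 tested members with a window had overlapping log2 fold changes. The 10 members with E2F letters and no CHR letters had a median log2 fold change of -0.20, and the 13 with CHR letters and no E2F letters -0.15. The 5 with both had -0.03, and the 8 with neither -0.03. The ranges overlapped, from -1.16 to 0.07 for E2F letters alone and from -0.70 to 0.71 for CHR letters alone.

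Among 34 other tested replication genes 2 fell, 0 rose and 32 missed the threshold, at a median log2 fold change of -0.02. That is 5.88% past the threshold, against 15.0% of all tested genes. At an unadjusted limma p under 0.05, 6 were lower and 1 was higher (20.6%), against 30.0% of all tested genes. The genes that fell were Asf1b, a histone chaperone gene of the replication fork, at 261 and 262 in Folr1-/- embryos and 439, 402 and 541 in Folr1+/+ embryos (log2 fold change -0.77 ± 0.17, SE, limma adjusted p = 0.0092), and Cdc7, the kinase that fires origins (-0.57 ± 0.17, SE, limma adjusted p = 0.043). Among 44 other tested mitosis genes 2 rose, 2 fell and 40 missed the threshold (9.09% past it), at a median log2 fold change of -0.12. Of these 44 genes, 10 were lower and 5 higher at an unadjusted limma p under 0.05 (34.1%), against 30.0% of all tested genes. The kinetochore genes Cenpk and Spc25 rose by 0.72 ± 0.21 and 0.53 ± 0.16, and the centriole genes Plk4 and Stil fell, with -0.54 ± 0.15 and -0.60 ± 0.18 (SE, limma adjusted p 0.036 to 0.047). These calls of Cdc7, Cenpk, Spc25, Plk4 and Stil were each lost in 7 to 9 of 17 other settings, and that of Asf1b in 3. With the mean of its probe sets Spc25 had 0.04.

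Among 31 tested regulators of the cycle 2 rose, 1 fell and 28 missed the threshold, at a median log2 fold change of -0.24. That is 9.68% past the threshold, against 15.0% of all tested genes. At an unadjusted limma p under 0.05, 9 were lower and 4 higher (41.9%), against 30.0% of all tested genes. The groups did not overlap in 61.3% of the regulators, against 46.7% of all tested genes. By direction, 48.4% were lower and 12.9% higher, against 24.2% lower and 22.5% higher among all tested genes. Cdkn1c, which encodes the CDK inhibitor p57 and is an imprinted gene, had signals of 2744 and 2202 in Folr1-/- embryos, against 649.7, 757 and 693 in Folr1+/+ embryos. This gave a log2 fold change of 1.79 ± 0.15 (SE, limma adjusted p = 2.1e-05). Cdkn1a, which encodes the CDK inhibitor p21, a p53 target, had signals of 222 and 509 in Folr1-/- embryos, against 58.1, 72.5 and 61.7 in Folr1+/+ embryos. Both Folr1-/- values lay well above the Folr1+/+ range, though far from each other, and the log2 fold change was 2.14 ± 0.27 (SE, limma adjusted p = 0.00035). Foxm1, a transcription factor gene that acts with the MuvB complex on mitosis genes, had signals of 129 and 122 in Folr1-/- embryos, against 244, 254 and 280.4 in Folr1+/+ embryos. Its log2 fold change was -0.96 ± 0.16 (SE, limma adjusted p = 0.0020), and with the mean of its probe sets it did not pass (-0.47, adjusted p = 0.11). The endoderm, erythroid and neural marker sums differed between the same arrays, and their part in these calls was not tested. No E2F or pocket protein gene passed, with E2f1 at -0.39 ± 0.21, Rbl1 at -0.58 ± 0.20 and Rb1 at -0.71 ± 0.27 (SE, limma adjusted p 0.24, 0.072 and 0.094). E2f5 had -0.43 ± 0.15 (SE, limma adjusted p = 0.072), and E2f8 had 0.04. A second E2f5 probe set passed when every probe set was fitted on its own (-0.65 ± 0.17, SE, limma adjusted p = 0.036).

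**Figure D5:**
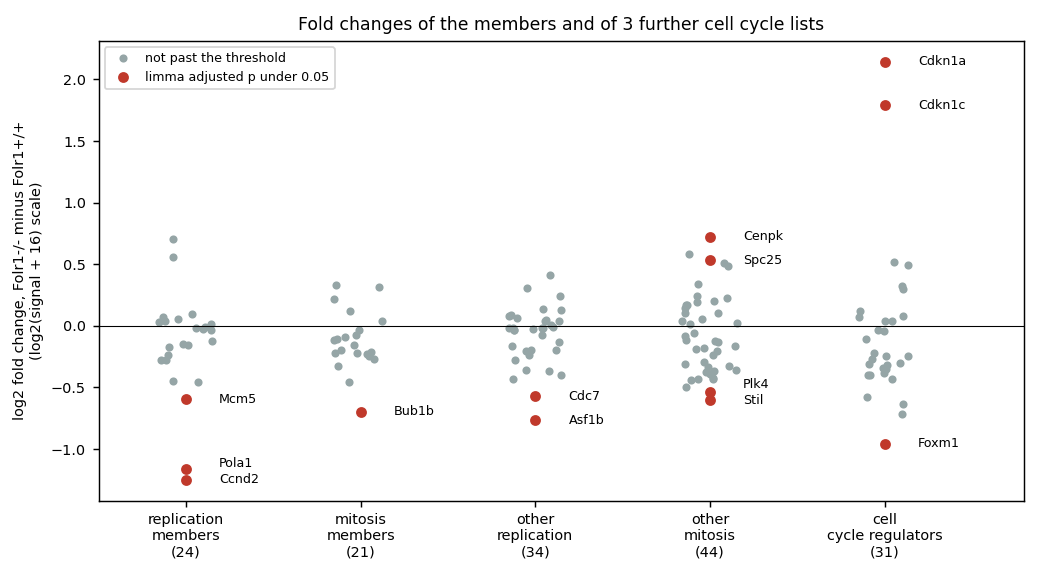
Log2 fold change (Folr1-/- minus Folr1+/+, vertical axis, log2(signal + 16) scale) of the tested genes of 5 cell cycle lists, 1 point a gene, with genes past the threshold in red and named. The members and the 2 further gene lists for replication and mitosis lie between -1.25 and 0.72, while the CDK inhibitor genes Cdkn1a and Cdkn1c stand at 2.14 and 1.79.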

How the data were processed

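The authors deposited a linear intensity for each probe set, computed with MAS5 per the submitters' processing notes. Its version was not given in the sources used here. Their scaling of arrays was kept. RNA was amplified in 2 rounds, per the labels' protocols. Of 22690 probe sets, 64 were controls, 20380 were annotated to 1 symbol, 691 to more than 1 and 1555 were absent from the annotation table. A filter on dim genes, at the 40th percentile of the mean log2(signal + 16), kept 7436 of 12393. Log2(signal + 16) values were tested with limma 3.58.1 in R 4.3.3 (lmFit, eBayes with an intensity trend, 3 residual degrees of freedom) and Benjamini-Hochberg adjustment over the 7436 genes at 0.05. Fold changes are Folr1-/- minus Folr1+/+, and the pseudocount of 16 understates those of dim genes. The code was tested on simulated data. With 5 arrays the precision is low, and detection calls were not used here. All 46 members are described, and of the other lists the genes past the threshold, at most 8 in each direction. Ccnd3, Pola2, E2f1, E2f5, E2f8, Rbl1, Rb1, Xist, Eif2s3y and Kdm5d were named after their values were seen. Members and lists were chosen with earlier results of these data known. Probe sets ending in _s_at or _x_at, chosen for 8 members, can share sequence with other transcripts. Promoter windows came from RefSeq on GRCm38.p6. Alternatives varied the pseudocount, filter, normalization, probe set summary, variance prior, array weights, covariates, replicate block and the arrays kept.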

Additional observations from a re-analysis of the deposited data

How the results depend on the processing

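Across 17 other settings the number of genes past the threshold lay between 369 and 1376, against 1114. Leaving out 1 array gave 369 to 1007, the lowest without Folr1-/- replicate 1, while 664 passed without the other Folr1-/- array and 636 without Folr1+/+ replicate 3. The replication members past the threshold numbered 2 to 4 lower. Higher ones were 1 with array weights (Gmnn) and 0 to 1 when an array was left out (Mcm2, without Folr1+/+ replicate 1), and the mitosis members lower were 0 to 1 (0 without Folr1-/- replicate 1). The median of the mitosis members, -0.15, was -0.061 with median centring, -0.19 with quantile normalization, -0.073 with probe sets averaged per gene, and -0.185 with the replicate block. Leaving out 1 array gave -0.053 to -0.185, with -0.053 without Folr1-/- replicate 1. The median of the replication members, -0.08, then lay between -0.15 and -0.0061. The cause of these shifts was not tested. Pola1 passed in all 16 settings in which it was tested, with log2 fold changes from -1.31 to -0.88. None of the 4 members past the threshold changed direction, whereas 18 of the other members, with log2 fold changes between -0.15 and 0.12, changed sign in at least 1 setting. Both genotypes share replicate numbers, which the labels do not tie to litters or days. Deviations of same-numbered arrays from their group means had correlations of 0.02 and -0.06. With 2 Folr1-/- arrays, their deviations mirror each other. These correlations therefore cannot show whether same-numbered arrays shared a litter or day. The replicate block gave 899 genes past the threshold, and all 4 members kept their calls. Folr1+/+ replicate 3 has no Folr1-/- array of its number, so it did not enter the fold changes of this setting. These equalled those without that array, as in the mitosis median of -0.185. The setting without X and Y genes (1053 of 7186 genes past the threshold) and the fit of every probe set on its own (1415 of 12228 probe sets) were chosen after seeing the data. With 2 and 3 arrays the intervals of the members reached 0.29 to 0.67 to either side.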
